A study of Arabidopsis thaliana with 12 samples.

Results

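Transcript levels in seedlings of the Arabidopsis thaliana mutant hub2 were set against those of wild-type seedlings, on the 3 arrays labelled hub2 and the 3 labelled wild type, which are 6 of the 12 arrays of the series. The other 6 arrays hold the single mutant sdg8 and the double mutant sdg8hub2, of which sdg8 serves below for 1 further comparison and the double mutant is not used. All groups are ecotype Columbia, were harvested as whole seedlings at 6 days of age, and grew at 22 °C under 16 h of light and 8 h of dark. The labels describe the 3 arrays of a group as biological replicates grown independently, and name no allele of hub2 and no number of plants per array.

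HUB2 encodes a RING-type E3 ubiquitin ligase that, together with its partner HUB1, attaches a single ubiquitin to histone H2B. This mark lies over the bodies of transcribed genes, where it accompanies transcript elongation and the placement of H3 methylation marks, and it is removed by ubiquitin proteases such as UBP26. In Arabidopsis, loss of the mark is known to affect seed dormancy, flowering time, the circadian clock, the cuticle and leaf growth.

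The values are MAS5 intensities of an Affymetrix 3' expression array, called signal here. They were taken as log2, and a log2 change is the mean of the hub2 arrays minus the mean of the wild-type arrays, so that 1 unit is a doubling of the signal. A probe set is called when its Benjamini-Hochberg adjusted p in limma, over all probe sets tested, is under 0.05, and "rose" and "fell" refer to that call. The mean signal, trimmed by 2% at each end, was 500 on each of the 6 arrays, and the median SD between arrays of a group was 0.19 on the log2 scale in hub2 and 0.17 in wild type. Per-array values are given in the order replicate 1, 2, 3. In whole seedlings, fewer cells of a type and less RNA per cell cannot be told apart. The probe set of HUB2 is unnamed in the annotation used here, so the targeted gene was not checked, and the same holds for SDG8 and for the floral repressor FLC.

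Setting hub2 against wild type shows which transcripts differ where HUB2 is mutated. The genes ranked here were called, had 1 symbol, no overlap of arrays between the groups and a signal above the array median in the higher group. The absence of overlap among them was thus a condition of the choice and is no result. The 4 highest changes in this ranking belonged to the plant defensins PDF1.2 and PDF1.2b and to a pair of genes for small cysteine-rich membrane peptides. The 12 highest also held a SAUR gene, a chitinase-family gene, a thaumatin-like gene and heat shock genes, of which the thaumatin-like gene and 1 heat shock gene lost their call in 5 of the 6 fits that left out 1 array. The 12 lowest held genes of secreted peroxidases, lipid-transfer-type proteins of a cluster on chromosome 4, a glutaredoxin and a PR-1-related protein. Of 18189 probe sets tested, 447 changed (2.46%), of which 216 rose (1.19%) and 231 fell (1.27%). Rises were 48.3% of the calls, and the median log2 change over all probe sets tested was 0.00068.

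Changes were mostly small. The median log2 change was 0.58 among probe sets that rose and -0.58 among those that fell, and 58 of the 447 changed at least 2-fold (30 rose, 28 fell). Without overlap between the 3 arrays of each group were 446 of the 447, against 21.2% of all probe sets tested. The call, made on the same arrays, all but requires this separation, so it is no separate support for the calls. A single gene symbol was listed for 216 of the 447 (105 of them rose), 13 had several, and 218 are unnamed here.

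The number of calls rests on how the spread is estimated. The model lets the variance follow the signal, and without that trend limma called 2 probe sets. With the trend, 2891 had an unadjusted p under 0.05. Both probe sets called without it lack a single gene symbol, and none of the 56 genes named by rule below was among them. With all 12 arrays and no trend, a setting chosen after seeing the data, 127 probe sets were called, 90.6% of them among the 447, and they included 23 of the 56 named genes. Leaving out wild-type replicate 1 left 130 calls, without wild-type replicate 3 there were 148, and without wild-type replicate 2, hub2 replicate 1 or hub2 replicate 3 there were 229, 287 and 294.

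**Figure D1:**
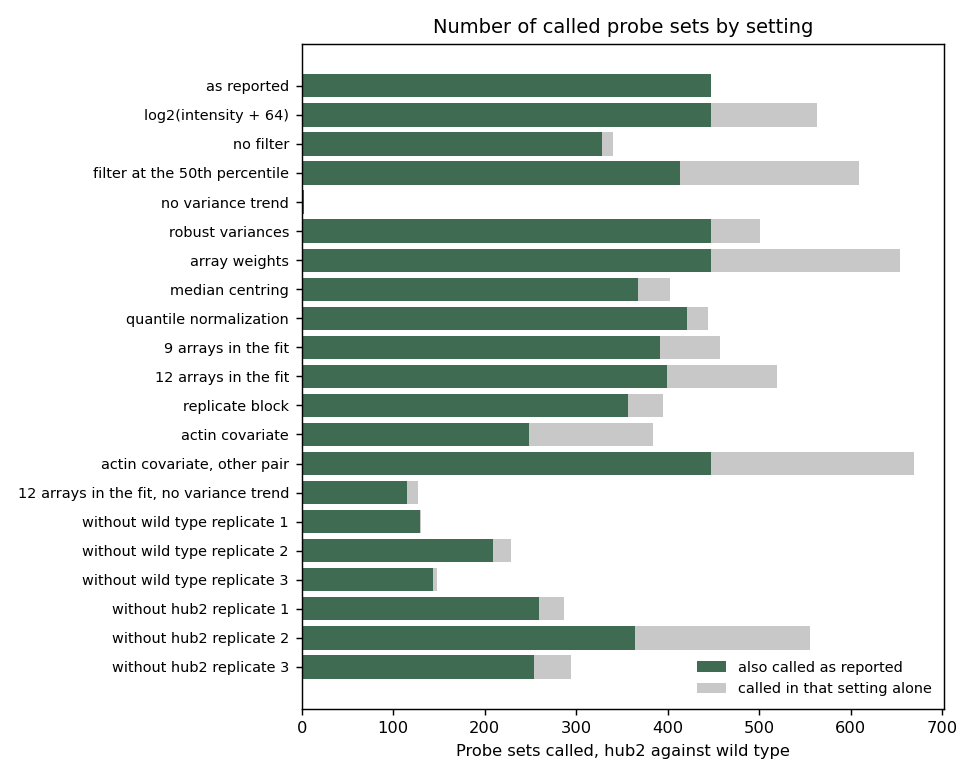
Number of probe sets called for hub2 against wild type (x axis) in each setting (rows), with the 447 as reported at the top. Green is the part also among the 447 and grey the rest; the bars run between 2 without the variance trend and 669 with the other actin pair as a covariate.

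**Figure D2:**
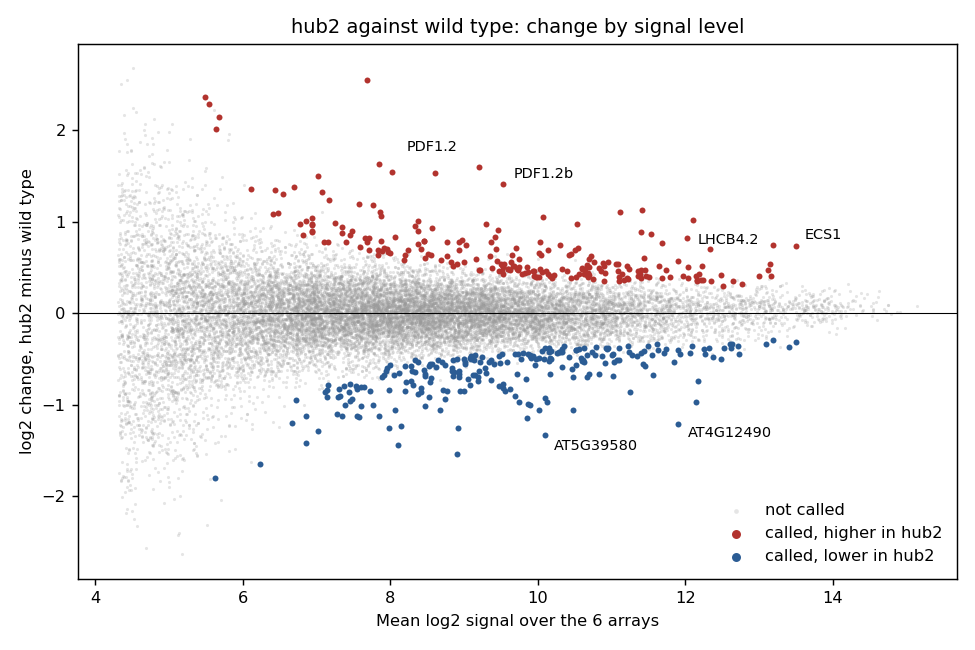
Each point is 1 of 18189 probe sets, by its mean log2 signal over the 6 arrays (x axis) and its log2 change, hub2 minus wild type (y axis). Red points are the 216 that rose, blue points the 231 that fell and grey points the rest; the called points narrow towards the zero line as signal increases, and calls are few at the dim end.

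Called probe sets were concentrated among the brighter ones. With probe sets cut into 5 equal groups by mean signal, from dimmest to brightest, 0.137%, 1.02%, 2.20%, 3.27% and 5.66% were called. The brightest group held 105 of the 216 rises, and in the dimmest 4 rose and 1 fell. Brighter probe sets were called at smaller changes, so these shares also depend on what the test can detect at each level.

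Calls also differed by gene length. Genes were cut into 3 equal groups by the annotated length in RefSeq TAIR10.1 (9991 genes with 1 symbol and a length). In the shortest group, up to 1817 bp, 3.15% were called, in the middle group 2.07%, and in the longest, from 2794 bp, 1.14%. The longest group held 26 genes that rose and 12 that fell, against 49 that rose and 56 that fell in the shortest and 27 and 42 in the middle. The median log2 signal was 7.56, 7.97 and 7.63 in the shortest, middle and longest group. By chromosome, between 1.90% (chromosome 4) and 2.36% (chromosome 2) of the genes were called, and none of the 68 plastid-encoded genes.

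Of the 12 highest changes among named genes, the defensins PDF1.2 and PDF1.2b had the smallest adjusted p-values. Probe sets without a single gene symbol, which are not described here, include larger rises. PDF1.2, a plant defensin gene used as a marker of jasmonate and ethylene signalling, had log2 signals of 9.36, 9.38 and 9.39 in hub2, against 8.05, 7.61 and 7.87 in wild type. The hub2 arrays lay within 0.03 of each other, and every one was above the highest wild-type array. The log2 change was 1.53 (SE 0.13), a 2.90-fold higher signal, with a limma adjusted p of 1.1e-05.

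PDF1.2b, a close copy of PDF1.2, had log2 signals of 10.40, 10.16 and 10.16 in hub2, against 8.76, 8.95 and 8.76 in wild type. The groups did not overlap, and the log2 change was 1.41 (SE 0.11; limma adjusted p = 6.0e-06). Its probe set is of the type that can also bind transcripts of similar genes, so the separate contributions of the copies are uncertain. Both defensins kept their call with each array left out in turn.

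The list of jasmonate and ethylene defence genes had 5 measured members, of which these 2 rose and none fell, where 2.12% of the 10100 genes with 1 symbol changed (1.03% rose, 1.09% fell). PDF1.4, a further defensin, had a log2 change of 0.19, and the thionins THI2.1 and THI2.2 had changes of -0.78 and -0.53 without a call. The median of the list was 0.19. PDF2.1, another plant defensin gene, which is in no list and was picked after its values were seen, had log2 signals of 10.26, 10.43 and 10.35 in hub2, against 9.68, 9.64 and 9.76 in wild type (log2 change 0.66, limma adjusted p = 0.0016).

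Genes for CYSTM peptides, short cysteine-rich proteins with a membrane anchor that are linked to stress responses, were also among the highest. AT2G32190 had log2 signals of 7.65, 7.63 and 8.04 in hub2, against 6.26, 6.27 and 6.30 in wild type. AT1G56060 had 7.78, 7.67 and 7.75 in hub2, against 6.58, 6.24 and 6.41 in wild type. Neither gene had an array of one group inside the range of the other, and the log2 changes were 1.498 (SE 0.20; limma adjusted p = 0.00063) and 1.33 (SE 0.19; limma adjusted p = 0.0012). AT2G32190 was not called in the fit with 9 arrays, where the sdg8 arrays shared in the estimate of the spread. With all 12 arrays and the variance trend it was called. This group of 8 measured genes was assembled by gene code after the values had been seen. Of the 8, 3 rose and none fell, against 1.03% and 1.09% of all genes, with a median of 0.24. The third was AT1G05340, with a log2 change of 0.48 (limma adjusted p = 0.038), which was not called without hub2 replicate 3 or without any 1 wild-type array (adjusted p up to 0.17).

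A few heat shock genes rose. Hsp70-2, a cytosolic chaperone of the HSP70 family, had log2 signals of 8.70, 8.87 and 8.85 in hub2, against 7.77, 8.16 and 7.64 in wild type. Its log2 change was 0.95 (SE 0.15; limma adjusted p = 0.0026), with no overlap between the groups. The small heat shock protein gene of mitochondria, AT5G51440, had 6.999, 7.89 and 7.49 in hub2, against 6.71, 6.27 and 6.28 in wild type. Its arrays in hub2 spread over 0.9 units, the log2 change was 1.04 (SE 0.24; limma adjusted p = 0.033), and the call was lost without any 1 wild-type array and without hub2 replicate 2 or 3 (adjusted p up to 0.14).

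Of 11 heat shock genes measured, a group also assembled after the values had been seen, 3 rose and none fell. Over all genes with 1 symbol, 1.03% rose and 1.09% fell. The median log2 change was -0.0068 over all genes with 1 symbol and 0.65 over the 11. The log2 change was above zero in 8 of them and below zero in 3, with a lowest value of -0.94. AT3G09440, an HSP70 gene, was the third, at 0.48 (limma adjusted p = 0.043); without any 1 wild-type array or hub2 replicate 2 or 3 its adjusted p reached 0.20. AT1G52560, a small heat shock protein gene, measured 2.20 higher in hub2 but was not called (adjusted p = 0.20).

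Further genes with high changes came from several families. AT3G53250, of the SAUR family of auxin-responsive genes, had log2 signals of 7.91, 7.74 and 7.72 in hub2, against 6.73, 6.75 and 6.19 in wild type (log2 change 1.23, limma adjusted p = 0.0033). AT3G47540, of the chitinase family, had 8.66, 8.33 and 8.26 in hub2, against 6.94, 7.69 and 7.31 in wild type (log2 change 1.11, limma adjusted p = 0.0043). AT1G67865 had 11.94, 11.56 and 11.50 in hub2, against 10.42, 10.69 and 10.60 in wild type (log2 change 1.10, limma adjusted p = 6.6e-05). In all 3 genes the lowest hub2 array lay above the highest wild-type array, and AT1G67865 was the brightest of the 12 highest changes.

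AT3G28220 rose with a log2 change of 0.97 (limma adjusted p = 0.0016). AT4G36010, a thaumatin-like gene of the PR-5 type, had a change of 1.00 (adjusted p = 0.037) and AT1G76960 one of 0.98 (adjusted p = 0.035). These last 2 are less certain: both lost their call without any 1 wild-type array and without hub2 replicate 3, AT4G36010 also without hub2 replicate 1 and AT1G76960 without hub2 replicate 2 (adjusted p up to 0.17 and 0.16).

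**Figure D3:**
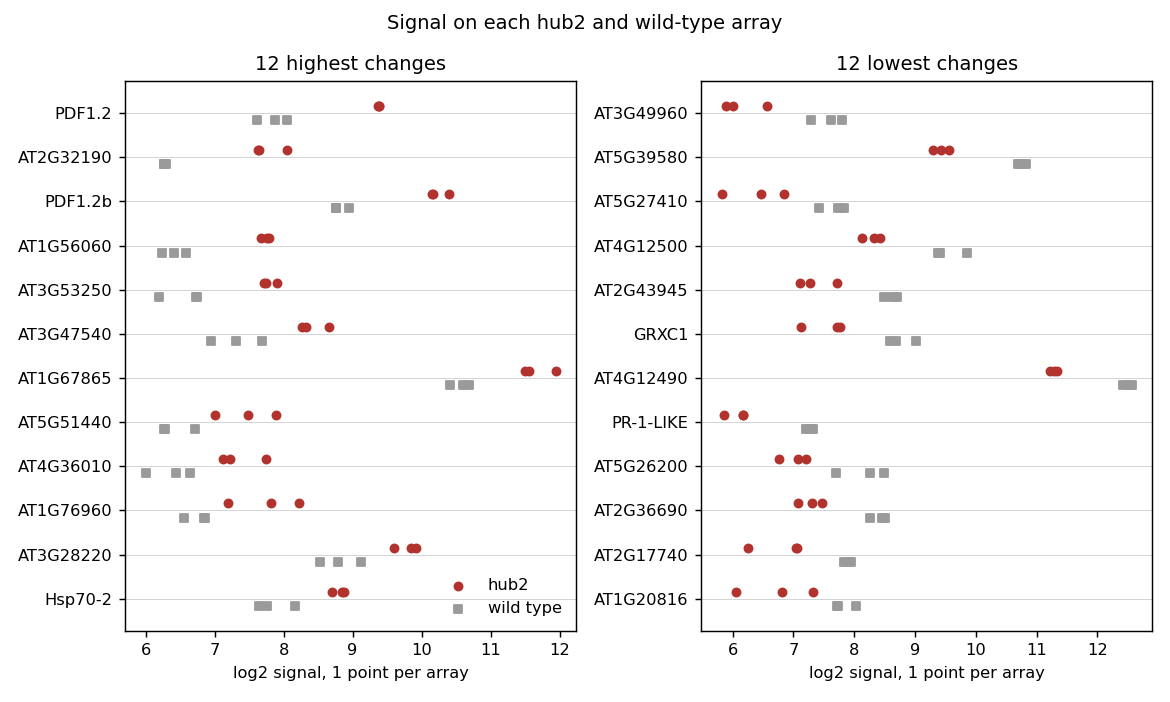
Log2 signal (x axis) of the 12 genes with the highest (left panel) and the 12 with the lowest log2 changes (right panel) chosen by the naming rule, 1 point per array. Red circles, drawn above, are hub2 arrays and grey squares wild-type arrays. For PDF1.2 the hub2 circles sit together between 9.36 and 9.39. The groups overlap in no gene because the naming rule required this.

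Class III peroxidases had the most members that fell of any list here, and are also 1 of the longer lists. These secreted haem enzymes use hydrogen peroxide to cross-link or loosen cell wall polymers, and many are active in roots. AT5G39580 had log2 signals of 9.30, 9.42 and 9.56 in hub2, against 10.70, 10.75 and 10.83 in wild type. The highest hub2 array was more than 1 unit below the lowest wild-type array, and the log2 change was -1.33 (SE 0.10; limma adjusted p = 4.3e-06).

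AT4G26010 had log2 signals of 9.64, 9.13 and 9.69 in hub2, against 10.51, 10.52 and 10.62 in wild type. AT5G64120, also known as PRX71, had 10.89, 10.69 and 10.89 in hub2, against 11.68, 11.69 and 11.67 in wild type. AT3G49960 was dimmer, with 6.57, 5.89 and 6.01 in hub2, against 7.30, 7.79 and 7.62 in wild type. All 3 peroxidases fell without overlap of the arrays, with log2 changes of -1.06, -0.86 and -1.42 and limma adjusted p-values of 0.00032, 5.5e-05 and 0.0038.

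Of 50 class III peroxidase genes measured, 8 fell and 1 rose, against 1.09% and 1.03% of all genes. Their median log2 change was -0.14, with 34 of the 50 below zero. The other members that fell were AT1G30870 (-0.56), AT2G37130 (-0.55), AT5G17820 (-0.49) and AT3G01190 (-0.41), and AT1G71695 rose by 0.40. Their limma adjusted p-values were 0.030, 0.0026, 0.029, 0.041 and 0.019. AT2G37130 kept its call with each array left out. The rest of these are not among the genes named by rule, and their calls with an array left out are not given. The peroxidase, chitinase, CAP, lipid-transfer, CYSTM, glutaredoxin, extensin and heat shock groups were assembled by gene code after the values had been seen, so their counts describe the families and are no independent support for a direction.

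Neither of the 2 measured genes of the root marker list was called. PYK10, a root beta-glucosidase, had a log2 change of -0.17 (adjusted p = 0.29), and NRT2.5, a nitrate transporter, had one of -0.21 (adjusted p = 0.90). PYK10 had log2 signals of 14.01, 14.01 and 13.92 in hub2, against 14.05, 14.20 and 14.19 in wild type. The groups did not overlap for PYK10, as for 20.5% of all genes with 1 symbol, and whether root signal has a part in the peroxidase values was not tested.

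Genes of lipid-transfer-type proteins moved in both directions. AT4G12490 and AT4G12500 encode proline-rich proteins of this type and lie close together on chromosome 4, with 1 annotated gene between them. AT4G12490 had log2 signals of 11.34, 11.23 and 11.29 in hub2, against 12.57, 12.52 and 12.42 in wild type. AT4G12500 had 8.42, 8.12 and 8.33 in hub2, against 9.38, 9.85 and 9.42 in wild type. Both fell without overlap, with log2 changes of -1.22 (SE 0.08; limma adjusted p = 2.0e-06) and -1.26 (SE 0.14; limma adjusted p = 0.00013).

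Of 8 such genes measured, 4 fell and 2 rose, against 1.09% and 1.03% of all genes, with a median of -0.68. AT5G55450 (-1.06) and AT3G22570 (-0.79) fell as well. AT4G33550 had log2 signals of 9.91, 10.01 and 9.85 in hub2, against 8.86, 9.22 and 8.95 in wild type, and rose (log2 change 0.91, limma adjusted p = 0.00051). AT5G48490 rose with a change of 0.69 (limma adjusted p = 0.0009).

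Chitinases, which cut the chitin of fungal walls, were likewise split. Of 13 measured, 3 fell and 1 rose, against 1.09% and 1.03% of all genes, and the median was 0.17. AT2G43620 had log2 signals of 9.71, 9.40 and 9.80 in hub2, against 10.56, 10.55 and 10.72 in wild type (log2 change -0.97, limma adjusted p = 0.00018). CHI had 6.99, 6.89 and 6.76 in hub2, against 7.91, 7.85 and 7.89 in wild type (log2 change -1.003, limma adjusted p = 0.0038). Both fell without overlap. AT1G02360 fell (-0.64, adjusted p = 0.018), a call lost without hub2 replicate 1 or any 1 wild-type array (adjusted p up to 0.12), while AT3G47540, given above, rose.

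Genes of the CAP superfamily, to which the pathogenesis-related protein PR-1 belongs, had 13 measured members. Of these, 3 fell and none rose, against 1.09% and 1.03% of all genes, with a median of -0.34. PR-1-LIKE had log2 signals of 6.16, 5.86 and 6.18 in hub2, against 7.28, 7.21 and 7.33 in wild type. AT2G19970, which lies 2 genes from PR-1-LIKE on chromosome 2, had 9.14, 9.20 and 9.09 in hub2, against 10.24, 9.83 and 9.68 in wild type. The log2 changes were -1.20 (limma adjusted p = 0.0083) and -0.78 (limma adjusted p = 0.0043), without overlap in either. PR-1-LIKE lost its call without either of wild-type replicates 1 and 3 (adjusted p up to 0.062). AT4G07820 fell (-1.004, adjusted p = 0.0048), and leaving out wild-type replicate 1 ended its call (adjusted p = 0.053).

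GRXC1, a glutaredoxin, which is a small enzyme that reduces disulfides with glutathione, had log2 signals of 7.12, 7.76 and 7.71 in hub2, against 8.59, 9.01 and 8.68 in wild type (log2 change -1.23, limma adjusted p = 0.0014). AT1G06830, also a glutaredoxin gene, had 9.62, 10.01 and 9.88 in hub2, against 8.91, 9.12 and 8.97 in wild type (log2 change 0.84, limma adjusted p = 0.0014). They changed in opposite directions, and the other 19 of 21 glutaredoxin genes measured were not called. The extensin-type gene AT3G28550 had 4.99, 6.16 and 5.10 in hub2, against 7.08, 6.89 and 7.24 in wild type, a log2 change of -1.65 (adjusted p = 0.013), and lost its call without either of wild-type replicates 1 and 3 (adjusted p up to 0.10). It was the only one of 8 extensins to pass. Over all genes with 1 symbol 2.12% were called, so these few calls are no result about either family.

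The remaining genes among the 12 lowest had changes between -1.29 and -1.10. AT2G43945 had log2 signals of 7.10, 7.71 and 7.27 in hub2, against 8.50, 8.64 and 8.70 in wild type (log2 change -1.25, limma adjusted p = 0.00067). AT2G36690 had 7.31, 7.46 and 7.07 in hub2, against 8.51, 8.45 and 8.25 in wild type (log2 change -1.12, limma adjusted p = 0.00099). Both kept the call with each array left out. AT5G26200 (-1.13), a gene of the mitochondrial carrier family, and AT5G27410 (-1.29) were not called without wild-type replicate 1 or 3 (limma adjusted p up to 0.077 and 0.090). AT2G17740 (-1.12) was not called without any 1 wild-type array (limma adjusted p up to 0.071). AT1G20816 (-1.10) lost its call without hub2 replicate 1 or 3 and without any 1 wild-type array (adjusted p up to 0.17).

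Genes of the photosynthetic antenna and of chlorophyll synthesis were among those that rose. LHCB4.2, a minor antenna protein of photosystem II, had log2 signals of 12.51, 12.35 and 12.43 in hub2, against 11.52, 11.57 and 11.74 in wild type. Every hub2 array was above every wild-type array by at least 0.6 units (log2 change 0.82, SE 0.09, limma adjusted p = 6.9e-05). PORB, an oxidoreductase of the light-dependent step of chlorophyll synthesis, had 12.15, 12.26 and 12.17 in hub2, against 11.59, 11.52 and 11.75 in wild type (log2 change 0.57, limma adjusted p = 0.0017).

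Of 7 light-harvesting and photosystem genes measured, 2 rose and none fell, against 1.03% and 1.09% of all genes. All 7 had a log2 change above zero, and the median was 0.21. The second was LHCB4.3, at 0.38 (adjusted p = 0.027), which was not called without hub2 replicate 1 or 3 or any 1 wild-type array (adjusted p up to 0.17). LHCB4.1, the remaining LHCB4 gene, had a change of 0.07 (adjusted p = 0.75). Of 9 chlorophyll and carotenoid synthesis genes PORB alone passed, and the 68 plastid-encoded genes had a median of 0.05 with none called.

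A single histone gene was called. HTB4, a histone H2B gene, that is, of the protein to which HUB2 attaches ubiquitin, had log2 signals of 11.90, 12.12 and 11.89 in hub2, against 11.30, 11.76 and 11.44 in wild type. Its log2 change was 0.47 (SE 0.11; limma adjusted p = 0.036), without overlap. The call was lost without wild-type replicate 1 or 3 or any 1 hub2 array (adjusted p up to 0.20), and H2B genes are similar enough in sequence that the share of each copy is uncertain. The H2B genes HTB1, HTB2 and HTB11 had changes of -0.03, 0.26 and -0.04, and 6 of 7 histone genes were not called. Of all genes with 1 symbol, 2.12% were called. UBP26, which removes ubiquitin from H2B, had a change of 0.26, and LDL2, a histone demethylase gene, one of 0.35, neither with a call.

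Processes that are known to depend on H2B ubiquitination were thinly covered. None of the 6 flowering-time genes measured was called, nor any of the 3 gibberellin receptor genes of the dormancy list (GID1A, GID1B and GID1C, -0.24 to 0.05), nor the 1 clock gene, with a change of 0.02. No wax or cutin gene of the list was measured. Flavonoid synthesis (6 genes), early auxin response (11) and WRKY transcription factors (6) also had no member called, with medians of -0.03, 0.11 and -0.27. Only 2.12% of all genes with 1 symbol were called, so lists this short would mostly hold no call. Its absence does not show that these processes were unchanged.

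Among genes of cell wall growth and detoxification single members passed. Since 2.12% of all genes with 1 symbol were called, 1 or 2 calls in lists this short are no result about a family. Of 16 expansins, which loosen walls, EXPA8 rose (log2 change 0.77, limma adjusted p = 0.0017) and EXPA16 fell (-0.58, limma adjusted p = 0.035). Of 9 xyloglucan endotransglucosylases, EXGT-A3 fell (-0.38, adjusted p = 0.024). Of 13 glutathione transferases, the tau-class genes GSTU25 (0.77, adjusted p = 0.0034) and GSTU20 (0.36, adjusted p = 0.048) rose. EXPA16, EXGT-A3 and GSTU20 each lost the call without wild-type replicate 1, without wild-type replicate 3 and without at least 1 other array (adjusted p up to 0.17, 0.15 and 0.24).

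COR15B, a cold-induced chloroplast protein gene, was the 1 of 9 cold and dehydration genes that rose (0.56, adjusted p = 0.0066), though with wild-type replicate 1 left out its adjusted p was 0.068. BCAT4, of methionine chain elongation in glucosinolate synthesis, fell (-0.44, adjusted p = 0.032), as did CYP71B23, 1 of 15 cytochrome P450 genes (-0.84, adjusted p = 0.048). Both were lost without hub2 replicate 1 or 3 or any 1 wild-type array (adjusted p up to 0.13 and 0.23). PAP85, of the seed storage list, had log2 signals of 7.08, 6.89 and 7.11 in hub2, against 5.79, 6.13 and 5.87 in wild type (1.10, adjusted p = 0.026), and was not called without hub2 replicate 1 or 3 or wild-type replicate 1 or 3 (adjusted p up to 0.10). OLEO3, the other member, had -0.49 without a call. With 2.12% of all genes with 1 symbol called, these single calls are no result about their lists.

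The naming rule also took the brightest called genes, 3 in each direction. ECS1 had log2 signals of 13.92, 13.68 and 13.99 in hub2, against 13.10, 13.17 and 13.14 in wild type (log2 change 0.73, limma adjusted p = 0.00018). FDH, formate dehydrogenase, had 12.12, 12.29 and 12.27 in hub2, against 12.80, 12.65 and 12.74 in wild type (log2 change -0.50, limma adjusted p = 0.0036). AT2G25510 rose by 0.54 (adjusted p = 0.0014). These kept the call with each array left out, while AT2G10940 (0.40) and JAL33, a jacalin-related lectin (-0.38), did not: without wild-type replicate 1 or 3, among other arrays, the adjusted p reached 0.20 and 0.093. The 9 reference genes had changes between -0.28 and 0.21, and none was called.

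**Figure D4:**
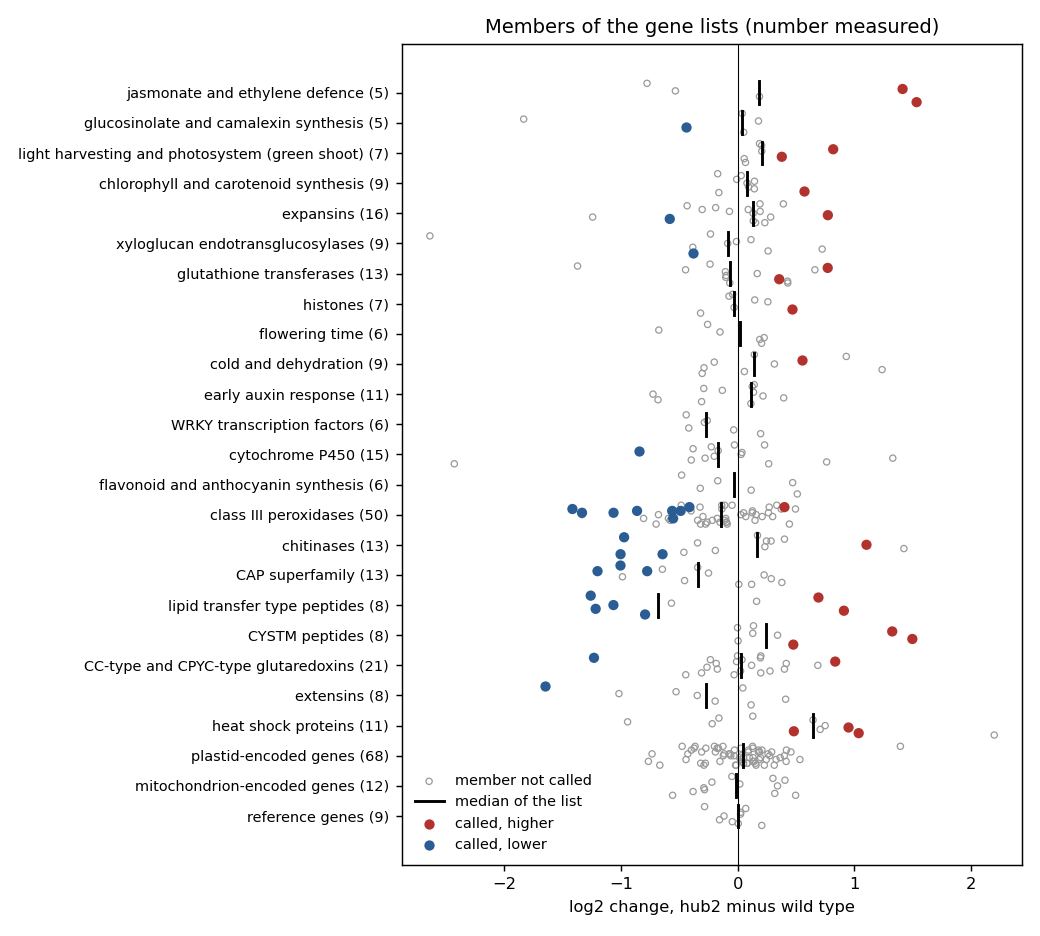
Log2 change, hub2 minus wild type (x axis), of each measured member of the gene lists with 5 or more members (rows; the number measured is in brackets, and vertical scatter within a row carries no value). Filled points were called (red higher, blue lower), open points were not, and black bars are medians: the 8 called-lower peroxidases lie left of zero, and the 68 plastid-encoded genes scatter on both sides with none called.

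Called genes that neighbour each other in the RefSeq gene order formed 4 pairs among 214 called genes. AT1G67860 (0.78) and AT1G67865 (1.10) rose together, and so did AT4G39670 (2.01) and AT4G39675 (0.63). AT4G39670 was too dim for the naming rule: its log2 signals were 6.42, 6.98 and 6.52 in hub2, against 3.69, 4.51 and 5.69 in wild type, so the size of its change is poorly determined. The pairs AT1G65490 (0.59) with AT1G65500 (-0.64) and AT1G78450 (0.58) with AT1G78460 (-0.43) moved in opposite directions.

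The actin control probe sets, which compare the 3' and 5' ends of a transcript, were uneven between the arrays. The log2 signal at the 3' end minus that at the 5' end was 1.29, 2.06 and 1.31 in hub2, against 1.04, 1.17 and 1.29 in wild type, with hub2 replicate 2 highest. The difference of 0.39 had an exact two-sided permutation p of 0.1, the smallest that 3 against 3 arrays allow, and was 0.13 without hub2 replicate 2. For GAPDH it was 0.09 (exact permutation p = 0.7). The second actin pair differed by -0.06 (exact permutation p = 0.9) and the second GAPDH pair by 0.30 (exact permutation p = 0.7). With the actin difference as a covariate 384 probe sets were called, 248 of them among the 447, and AT5G51440, AT4G36010, AT1G76960 and PR-1-LIKE of the 24 genes with the highest and lowest changes were not called.

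The genes named for hub2 were also compared with the other single mutant, sdg8, which lacks a histone H3 methyltransferase acting on transcribed genes. A test of hub2 against sdg8 over 9 arrays found 2876 of 18189 probe sets to differ (15.8%), 1590 higher in hub2 (8.74%) and 1286 lower (7.07%). Without the variance trend 1565 differed. Both mutants share the wild-type arrays, so their changes against wild type are given side by side only. The genes were chosen for their changes on the same hub2 arrays. That choice favours hub2 above sdg8 among the highest and below it among the lowest. Counts and p-values of hub2 against sdg8 for these genes are thus no independent support for a difference.

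Of the 12 genes with the highest changes in hub2, 9 differed between hub2 and sdg8, 8 of them higher in hub2. In sdg8 against wild type, 2 of these 12 genes rose as well, 3 fell and 7 were not called. PDF1.2b rose by 1.41 in hub2 and fell by 0.69 in sdg8, each against wild type, and hub2 exceeded sdg8 by 2.10 (limma adjusted p = 1.2e-09). PDF1.2 had changes of 1.53 in hub2 and -0.53 in sdg8, the second without a call, and differed by 2.07 (limma adjusted p = 1.9e-07). AT1G56060, the CYSTM peptide gene, had 1.33 in hub2 and -2.37 in sdg8, a difference of 3.70 (limma adjusted p = 3.8e-07). These defence peptide genes had opposite signs in the single mutants, with the sdg8 change called for PDF1.2b and AT1G56060.

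AT5G51440 was the 1 gene of the 12 that was lower in hub2 than in sdg8, with changes of 1.04 in hub2 and 2.55 in sdg8 and a difference of -1.51 (limma adjusted p = 8.0e-05). AT1G67865 rose in both, by 1.10 in hub2 and 1.01 in sdg8, and the difference of 0.09 did not pass (adjusted p = 0.67).

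Of the 12 genes with the lowest changes in hub2, 7 differed between the mutants, 4 of them higher in hub2 than in sdg8. In sdg8 against wild type, 8 of these 12 genes fell as well, 1 rose and 3 were not called. The 4 that were higher in hub2 fell in both mutants, and further in sdg8. The peroxidase gene AT5G39580 had changes of -1.33 in hub2 and -2.64 in sdg8, both called, and a difference of 1.30 (limma adjusted p = 2.6e-07). AT4G12490 had -1.22 in hub2 and -1.85 in sdg8, both called, and a difference of 0.63 (limma adjusted p = 0.00011). PR-1-LIKE had -1.20 in hub2 and 1.23 in sdg8, both called, and a difference of -2.43 (limma adjusted p = 3.1e-08). GRXC1 had -1.23 in hub2 and 0.03 in sdg8, a difference of -1.26 (limma adjusted p = 4.6e-05).

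The photosynthesis genes differed as well. LHCB4.2 rose by 0.82 in hub2 and fell by 0.41 in sdg8, a difference of 1.23 (limma adjusted p = 3.8e-08). PORB rose by 0.57 in hub2 and fell by 0.91 in sdg8, a difference of 1.48 (limma adjusted p = 1.9e-09). The CAP gene AT2G19970 fell by 0.78 in hub2 and rose by 1.39 in sdg8, like PR-1-LIKE, and the difference was -2.17 (limma adjusted p = 2.7e-09).

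**Figure D5:**
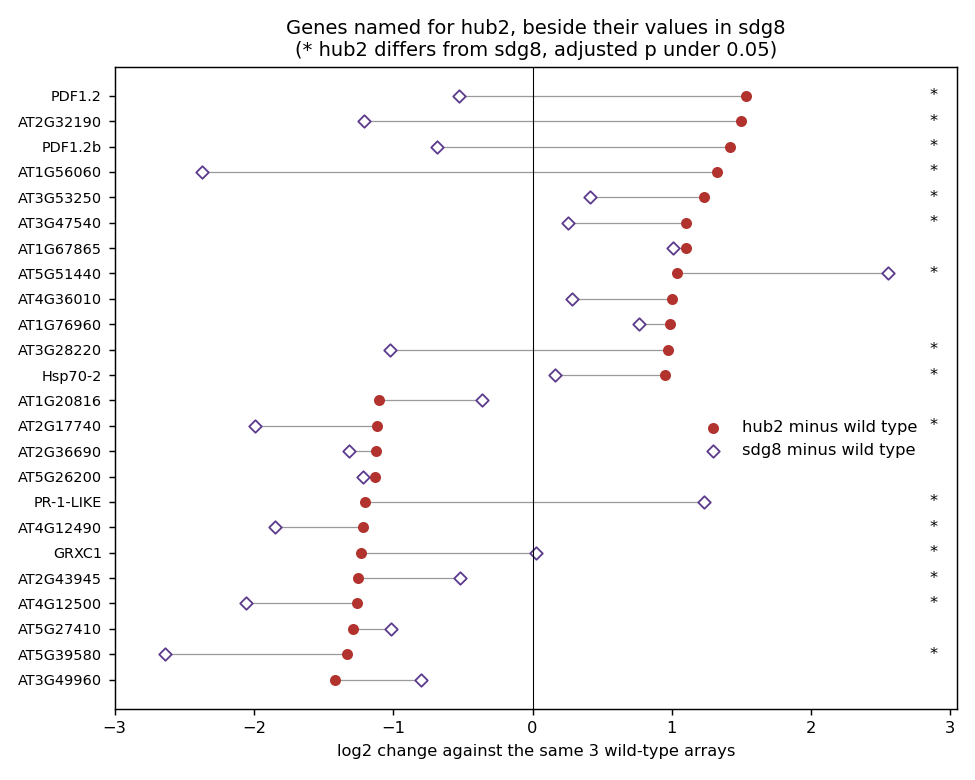
Log2 change against the same 3 wild-type arrays (x axis) for the 12 genes with the highest and the 12 with the lowest changes in hub2 (rows). Red circles are hub2 and open diamonds sdg8, and a star marks an adjusted p under 0.05 for hub2 against sdg8; AT1G56060 spans 1.33 in hub2 and -2.37 in sdg8, while the points of AT1G67865 nearly coincide.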

How the data were processed

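Total RNA of whole seedlings was labelled with biotin and hybridised to Affymetrix 3' expression arrays. The deposited values are linear intensities made by the authors with MAS5 and the affy package, per the submitters' processing notes; no versions or genome build are stated there. Detection calls were not used here, and the number of arrays limits the precision.

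Intensities below the 1st percentile of the 6 arrays (1.15 units) were set to it, and all were taken as log2; the deposited values are not log2. The 64 control probe sets of 22810 were left out, and probe sets with a mean log2 value above the 20th percentile (19.9 units) were kept. A mean per group was fitted to the 6 arrays in limma 3.58.1 (R 4.3.3; lmFit, eBayes with an intensity trend, two-sided, Benjamini-Hochberg adjustment over 18189 probe sets). The fit with sdg8 used 9 arrays. The script was tested on simulated data. In the annotation, 13513 probe sets have 1 gene symbol, 503 several and 8794 none; 13436 matched RefSeq TAIR10.1 by gene ID, which gave names, lengths and gene order only. A list member with several probe sets was represented by the brightest of them.

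Named genes are the 12 highest and 12 lowest log2 changes among called probe sets with 1 symbol, no overlap of arrays and, in the group with more signal, a mean exceeding the array-wide median; the 3 brightest in each direction; and from each list all called members, or the 4 with the smallest p where more than 4 were called. The list members and this rule were chosen with earlier results of these data known. A set of 6 probe sets that matched a list's pattern by chance of name was removed. Same-numbered arrays of hub2 and wild type did not deviate together (correlations of 0.0077, -0.0086 and 0.047), so arrays were not paired. Alternatives were the value scale, the filter, the variance model, array weights, the scaling, the arrays in the fit, a replicate block, the actin covariate and leaving out each array.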

Additional observations from a re-analysis of the deposited data

How the results depend on the processing

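No log2 change of the 56 named genes reversed its sign in any alternative run. In these genes the arrays of the groups did not overlap, so leaving out 1 array could not have reversed a sign. Changing the filter or the variance trend leaves the log2 change as it is, so those runs could not reverse it either. The count of 447 changed probe sets (216 higher, 231 lower) was 2 without the variance trend (1 higher, 1 lower). In 2 alternatives chosen after seeing the data it was 127 with all 12 arrays and no trend (65 higher, 62 lower), and the other actin pair as a covariate gave 669 (349 lower). Leaving out 1 array gave 130 to 555 calls (66 to 255 higher, 64 to 300 lower), lowest without wild-type replicate 1 and highest without hub2 replicate 2. With each array left out in turn, 32 of the 56 named genes and 16 of the 24 with the highest and lowest changes kept their call. All other alternatives gave between 340 (no filter) and 654 calls (array weights). Over every setting, those with 1 array left out included, the share of rises stayed between 44.3% and 52.7%. Median centring kept the call of 50 named genes, the 9-array fit of 49 and the 12-array fit of 51. Arrays share replicate numbers but were not paired by them; with the replicate block 395 were called, 53 named genes among them. LHCB4.3, AT2G10940 and GSTU20 lost their call there. For hub2 against sdg8, the 2876 probe sets that differed were 1565 without the trend and 2129 to 2674 with 1 array left out. The actin difference of 0.39 was 0.13 to 0.52 with 1 array left out. Detection calls were not used here, so changes of dim probe sets such as AT4G39670 and AT3G28550 are poorly determined.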
